A study of Mus musculus with 12 samples.

Results

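The circadian clock of mammalian cells is a feedback loop of transcription, and the genes described here encode its repressors. The report covers 10 of the 18514 genes in the deposited tables, taken by symbol from the count and FPKM tables: the period genes Per1, Per2 and Per3, the cryptochromes Cry1 and Cry2, Ciart (also called Chrono), the Rev-erb receptors Nr1d1 (Rev-erb alpha) and Nr1d2 (Rev-erb beta), and the Dec genes Bhlhe40 (Dec1) and Bhlhe41 (Dec2). They were chosen by function, and were put forward with their differences between Model and Ctrl and between Model_Swim and Model already known. The values of these genes in those comparisons, and in the interaction built from them, are therefore given as a description without a p-value.

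RNA of colorectal tissue was sequenced from 12 male C57BL/6 mice, 1 library per mouse and 3 mice per group. Ctrl mice received no carcinogen and did not swim, and Ctrl_Swim mice swam every day without carcinogen. Model mice received azoxymethane (AOM), a colon carcinogen, by injection, followed by repeated rounds of drinking water with dextran sulfate sodium (DSS), an agent that causes colitis, and Model_Swim mice received the same AOM/DSS treatment and swam daily from before the first injection. Mice that did not swim were placed in shallow water, and all mice lived under a cycle of light and dark. The paper sets the daily swim at a fixed hour of the morning, and does not state the hour for mice that did not swim. Swimming and its fixed hour cannot be told apart in these groups, and the part of that hour was not tested. The hour at which tissue was collected, and whether it was the same in the 4 groups, is not given in the sources used here. Levels of clock genes change over the day, so a difference in level between groups and a difference in the phase of the rhythm cannot be told apart in these data.

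In the clock, the activators CLOCK (or NPAS2) and BMAL1, the product of Arntl, bind E-box sequences and switch on the Per, Cry, Ciart, Rev-erb and Dec genes. PER and CRY proteins return to the nucleus as a complex and inhibit CLOCK and BMAL1, and CIART binds BMAL1 and does likewise. The Rev-erb receptors repress Arntl and other genes at sites they share with the activating ROR receptors, and the Dec proteins compete for E-boxes. A further arm runs through D-boxes, bound by the activators DBP, TEF and HLF and by the repressor NFIL3. The colon epithelium has such a clock of its own.

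The promoters of the genes on which the results turn are shown first, since they hold the sequences through which these loops are described to act. RefSeq windows on the mouse build GRCm38.p6, from 250 bases before to 50 bases after an annotated start, were at hand for 8 of the 10 genes, with a pair of windows for Per1, and not for Per2 and Bhlhe40. They were searched on both strands for the E-box CACGTG, the E-prime box CACGTT, the D-box TTANGTAA, the half-site AGGTCA of Rev-erb and ROR sites and the cyclic AMP response element TGACGTCA. A match describes letters and does not show binding. Ciart, the gene with the greatest range of levels here, lies on chromosome 3, with its window at chr3:95882179-95882478 on the minus strand. Per3, the gene whose difference between Ctrl_Swim and Ctrl passed the test, has its window at chr4:151044616-151044915 on the minus strand. Cry1, the gene that was higher in Model, has its window at chr10:85185005-85185304 on the minus strand. Capitals mark the E-boxes in Ciart, the D-boxes in Per3, and the E-prime box followed by the E-box in Cry1.
Ciart: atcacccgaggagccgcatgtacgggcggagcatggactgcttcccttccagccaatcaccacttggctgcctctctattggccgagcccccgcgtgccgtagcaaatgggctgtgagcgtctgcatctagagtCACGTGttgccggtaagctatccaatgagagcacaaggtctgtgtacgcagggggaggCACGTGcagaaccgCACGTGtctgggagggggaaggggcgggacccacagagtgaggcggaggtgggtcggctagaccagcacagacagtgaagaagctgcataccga
Per3: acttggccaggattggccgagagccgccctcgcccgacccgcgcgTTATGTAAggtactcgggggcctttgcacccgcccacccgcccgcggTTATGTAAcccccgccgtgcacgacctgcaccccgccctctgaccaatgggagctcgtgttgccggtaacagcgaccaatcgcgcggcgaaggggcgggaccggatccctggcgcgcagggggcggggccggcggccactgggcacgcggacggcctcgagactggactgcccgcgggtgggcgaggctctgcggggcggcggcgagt
Cry1: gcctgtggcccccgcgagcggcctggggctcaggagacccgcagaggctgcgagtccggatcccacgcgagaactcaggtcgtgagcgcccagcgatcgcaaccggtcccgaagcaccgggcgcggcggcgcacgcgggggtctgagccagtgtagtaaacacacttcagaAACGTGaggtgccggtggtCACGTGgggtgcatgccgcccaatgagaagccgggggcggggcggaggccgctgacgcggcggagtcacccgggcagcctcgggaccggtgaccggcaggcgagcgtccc

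The E-box occurred in 7.15% of the 32851 mouse promoter windows and in windows of 4 of the 8 genes. The Ciart window held 3, at 116, 58 and 44 bases upstream of the start. Per1, Cry1 and Bhlhe41 had 1 each, at 166, 60 and 153 bases upstream. The E-prime box, found in 4.68% of all windows, stood 79 bases upstream in Cry1, 166 in Cry2 and 28 in Nr1d1. The D-box, found in 2.32% of all windows, occurred in Per3 alone among these genes, where the same 8 letters stood 205 and 158 bases upstream. The half-site, found in 16.3% of all windows, was present in Per1 and Nr1d2, and the cyclic AMP response element, found in 1.79%, was in no window of these genes. The E-box reads alike on both strands and was counted once, and no match overlapped another. The plot of motif matches shows the clustering of the 3 Ciart E-boxes within 116 bases of the start.

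**Figure D1:**
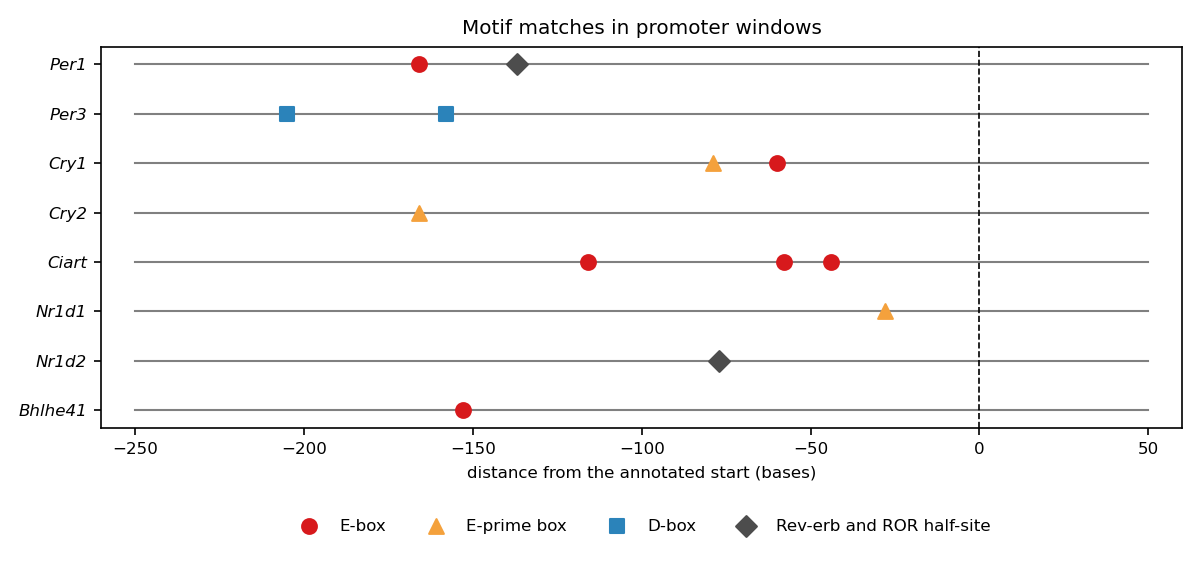
Position of motif matches in the promoter windows of 8 clock repressor genes, in bases from the annotated start (dashed line, negative values upstream), with 1 grey line per gene and 1 symbol per match. For Per1 the window that held matches is drawn. Ciart has 3 E-boxes between 116 and 44 bases upstream, and Per3 has 2 D-boxes at 205 and 158.

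Libraries held between 17256953 and 19451055 counts. A level of 3 counts, taken here as the floor, thus corresponds to 0.154 to 0.174 CPM (a gene's counts relative to a fixed library total). All 10 genes passed the filter on low counts, with counts per library from 11 (Ciart, Model 1) to 3794 (Bhlhe40, a Model_Swim library). Levels of 1 gene in different libraries are given as CPM scaled by TMM, which adjusts for library composition, and levels of different genes as FPKM, which also divides by transcript length. The colon epithelial markers summed to between 17700 and 23200 CPM in 10 libraries, to 8550 CPM in Model 1 and to 12700 CPM in Model 2. Model 1 and Model 3 stood apart by 12 pancreatic acinar genes (among them Pnlip and Cela2a), which summed to 46900 and 22900 CPM against 91.6 to 209 CPM in the 10 others. The sums of 8 leukocyte and 6 fibroblast markers were higher in every Model library (275 to 308 and 2390 to 2710 CPM) than in every Ctrl library (131 to 152 and 1370 to 1510 CPM), with Model_Swim at 202 to 326 and 1830 to 2440 CPM. The sum of 8 squamous epithelial markers ranged from 3.46 to 5.8 CPM in Ctrl, 2.71 to 335 in Ctrl_Swim, 3.85 to 1370 in Model and 104 to 998 in Model_Swim, and 6 of the 8 passed as higher in Model vs Ctrl and 4 in Model_Swim vs Ctrl. The part of these cell types in the results was not tested, and in bulk tissue fewer cells of a type and less RNA per cell cannot be told apart.

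The repressors differed widely in abundance. In Ctrl the highest FPKM was that of Bhlhe40 (50.7 ± 4.36, SD, n = 3) and of Nr1d1 (47.9 ± 4.69), whose ranges overlapped. Nr1d2 followed at 23.4 ± 0.844 and Cry2 at 7.41 ± 0.539, each apart from its neighbours in the order. Per2 (5.37 ± 1.08), Per1 (4.88 ± 0.301) and Cry1 (4.64 ± 0.24) overlapped in that order, and Per3 (3.2 ± 0.101), Ciart (2.69 ± 0.287) and Bhlhe41 (1.12 ± 0.24) stood below them without overlap. In Model the order changed at both ends: Cry1 stood next below Nr1d2 in FPKM (7.51 ± 1.33), overlapping Cry2 (6.84 ± 1.12), and Ciart was the lowest at 0.464 ± 0.312, overlapping Bhlhe41 (1.07 ± 0.271). In Model_Swim the order of the 3 most abundant genes was Nr1d1 (62.3 ± 1.86), Bhlhe40 (61.3 ± 8.01), whose ranges overlapped, and Nr1d2 (26.5 ± 1.72).

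**Figure D2:**
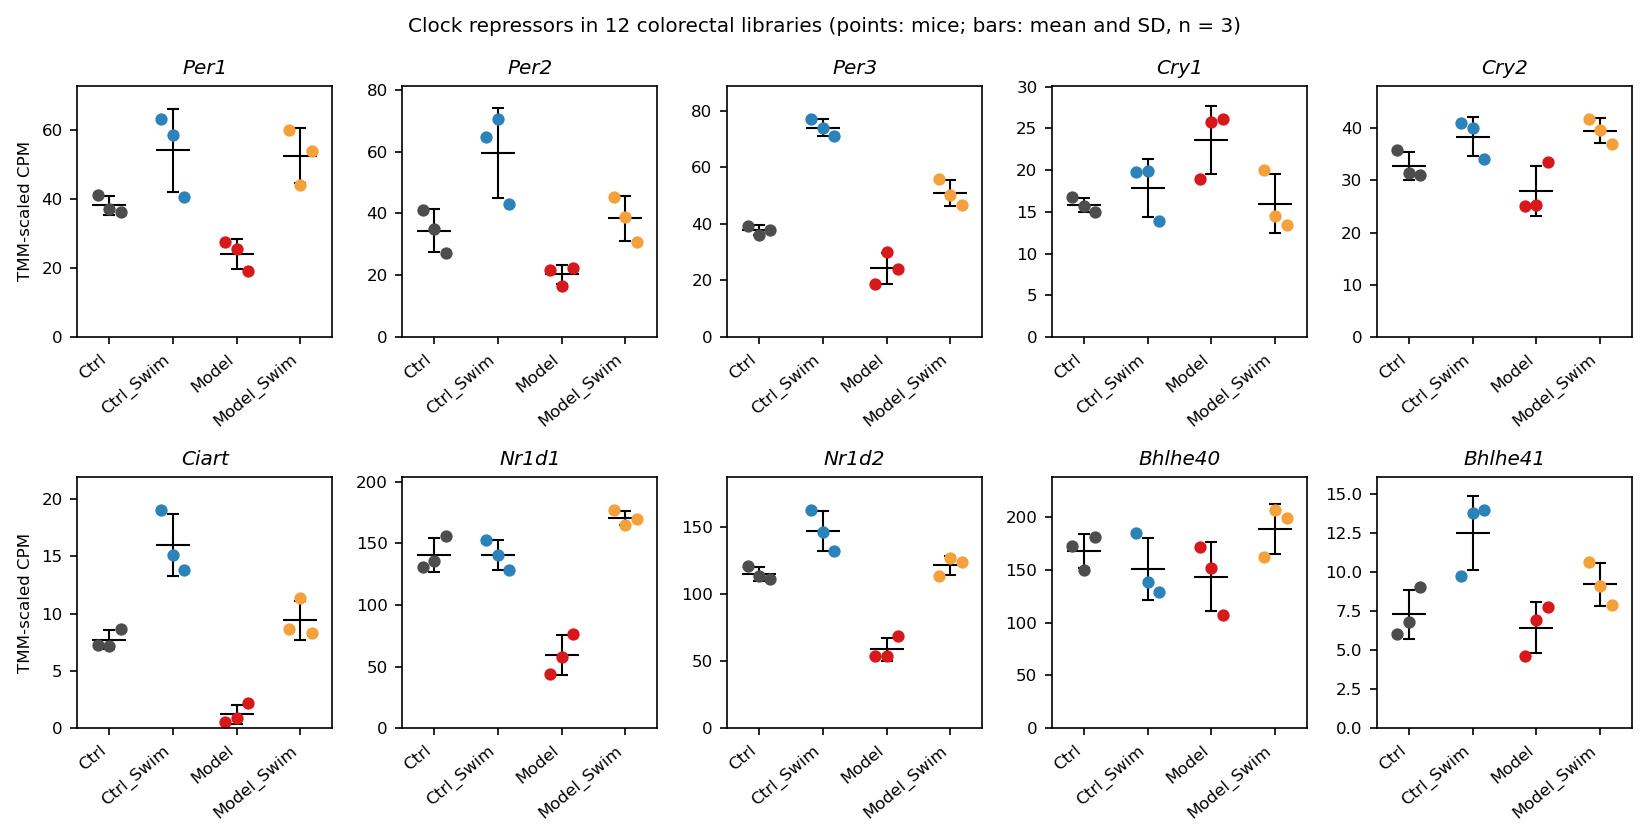
TMM-scaled CPM of the 10 clock repressor genes, with 1 panel per gene, 1 point per mouse, and black bars for the mean and SD of each group (n = 3). For Per1, Per2, Per3, Ciart, Nr1d1 and Nr1d2 all 3 Model points lie below all 9 others, and for Per3 the 4 groups do not overlap at all.

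In 6 of the 10 genes (Per1, Per2, Per3, Ciart, Nr1d1 and Nr1d2) the 3 Model libraries were the lowest of the 12, against 4.62% of all genes tested. The choice of the genes used this contrast, so the count is a description and nothing is read from it. In 3 genes (Per3, Ciart and Nr1d2) the 3 Ctrl_Swim libraries lay above the 9 others, against 2.20% of all genes tested. That pattern includes Model and so is not independent of the choice either.

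Among the period genes, whose proteins carry the negative feedback, Per1 stood at 41.2, 37.0 and 36.3 CPM in Ctrl and at 27.5, 25.6 and 19 CPM in Model. In Ctrl_Swim it stood at 63.3, 58.6 and 40.6 CPM, and in Model_Swim at 59.99, 44.1 and 53.9 CPM. Both swimming groups thus covered a similar range, mostly above Ctrl, and Model was apart below. Per2 stood at 41.2, 35.1 and 27.1 CPM in Ctrl, 64.9, 70.7 and 43.1 in Ctrl_Swim, 21.8, 16.6 and 22.2 in Model and 45.4, 38.9 and 30.8 in Model_Swim. The Ctrl_Swim range of Per2 lay above Ctrl and overlapped Model_Swim. Per3, described as an output of the D-box arm and less essential to the core loop than Per1 and Per2, stood at 39.3, 36.0 and 37.9 CPM in Ctrl and at 77.1, 73.7 and 71.2 CPM in Ctrl_Swim. In Model it stood at 18.9, 29.9 and 23.9 CPM and in Model_Swim at 55.7, 50.1 and 46.5 CPM. No group of Per3 overlapped another, in the order Ctrl_Swim, Model_Swim, Ctrl and Model.

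The cryptochromes, the strongest inhibitors of CLOCK and BMAL1, differed from each other in Model. Cry1 stood at 16.7, 15.8 and 15.0 CPM in Ctrl and at 18.9, 25.8 and 26.2 CPM in Model, without overlap and with Model higher. In Ctrl_Swim it stood at 19.7, 19.95 and 13.9 CPM and in Model_Swim at 20.03, 14.5 and 13.5 CPM, and both of these groups overlapped Ctrl. Cry2 varied least of the pair, at 35.8, 31.4 and 31.0 CPM in Ctrl, 40.9, 40.1 and 34.2 in Ctrl_Swim, 25.04, 25.3 and 33.5 in Model and 41.8, 39.8 and 37.1 in Model_Swim. Only the Model_Swim range of Cry2 was apart from that of Ctrl.

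Ciart, whose product binds BMAL1, had the lowest counts of the set in Model: 11 in Model 1, 17 in Model 2 and 38 in Model 3, with 95% Poisson intervals of 5.49 to 19.7, 9.9 to 27.2 and 26.9 to 52.2 that cover counting error only. These counts were 0.59, 0.926 and 2.18 CPM. Ctrl libraries stood at 7.29, 7.20 and 8.69 CPM, Ctrl_Swim libraries at 19.01, 15.1 and 13.8 CPM and Model_Swim libraries at 8.64, 11.4 and 8.27 CPM. Model was thus apart from all others, Ctrl_Swim was the highest, and Model_Swim overlapped Ctrl. The intervals of Model 1 and Model 3 did not meet, so the mice of that group differed by more than counting error.

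Of the Rev-erb receptors, which are heme-binding repressors of Arntl, Nr1d1 stood at 130.4, 135 and 156 CPM in Ctrl and at 44.2, 57.5 and 76.3 CPM in Model. Ctrl_Swim libraries, at 153, 141 and 128 CPM, overlapped Ctrl, and Model_Swim libraries, at 177, 165 and 169.9 CPM, lay above all others. Nr1d2 stood at 121, 113 and 111 CPM in Ctrl, 163, 146 and 133 in Ctrl_Swim, 53.9, 53.9 and 68.6 in Model and 113, 127 and 124 in Model_Swim. The receptors thus shared the low level in Model and differed in Ctrl_Swim, where Nr1d2 alone lay above Ctrl. Nr1d1 (chr11:98767932-98775377, minus strand) shares 263 exon bases with the thyroid hormone receptor gene Thra on the opposite strand, and the strand setting of the read counting is not given in the sources used here. Thra stood between 60.8 and 82.7 CPM over the 12 libraries, and its Model range of 66.2 to 79.9 CPM overlapped that of each other group.

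The Dec genes encode E-box repressors that also respond to hypoxia and other stimuli. Bhlhe40 stood at 172, 150.1 and 181 CPM in Ctrl, 184, 139 and 129 in Ctrl_Swim, 171, 152 and 108 in Model and 162, 206 and 198 in Model_Swim, with every pair of groups overlapping. Bhlhe41 stood at 6.02, 6.81 and 9.02 CPM in Ctrl, 9.75, 13.8 and 14.0 in Ctrl_Swim, 4.61, 6.92 and 7.75 in Model and 10.6, 9.08 and 7.90 in Model_Swim. The Ctrl_Swim range of Bhlhe41 lay above Ctrl, and its Model_Swim range lay above Model. Bhlhe41, Bhlhe40 and Cry2 share 1280, 118 and 295 exon bases with the genes Gm43909, 0610040F04Rik and D930015M05Rik on opposite strands, so their counts carry the same limit of strand.

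The comparison of Model with Ctrl addresses what AOM/DSS changes in untrained mice. Ciart was lower by the greatest factor, with a log2 fold change of −2.65 (SE 0.36), or 0.159 times Ctrl, followed by Nr1d1 at −1.25 (SE 0.16) and Nr1d2 at −0.97 (SE 0.10). The period genes were lower by similar amounts, with log2 fold changes of −0.67 (SE 0.18) for Per1, −0.77 (SE 0.22) for Per2 and −0.64 (SE 0.13) for Per3. Cry1 was the one member that was higher, by 0.58 (SE 0.19). Cry2 (−0.23, SE 0.12), Bhlhe40 (−0.22, SE 0.18) and Bhlhe41 (−0.18, SE 0.23) overlapped Ctrl. In the edgeR fit over all genes 6 members were below and 1 above at an adjusted p under 0.05, where 16.2% of all genes were below and 16.5% above. With the study's further cutoff of a fold change over 2 or under 0.5, Ciart and Nr1d1 remained, where 1.22% of all genes were called lower, and 6 members lay below Ctrl without overlap, against 23.2%. The median log2 fold change of the 10 genes was −0.65 and that of all genes tested 0.01. The genes were chosen by these values, so the counts are not evidence.

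Without Model 1 and Model 3, the libraries high in acinar genes, Model was 1 mouse, assumed to vary like the other groups. That mouse, Model 2, had the highest squamous marker sum of all libraries (1370 CPM) and a colon epithelial sum of 12700 CPM, whose part was not tested. The log2 fold change was then −3.07 (SE 0.32) for Ciart, −1.31 (SE 0.12) for Nr1d1, −1.11 (SE 0.12) for Nr1d2, −1.07 (SE 0.32) for Per2 and −0.36 (SE 0.10) for Per3. It was −0.60 (SE 0.23) for Per1 and 0.69 (SE 0.23) for Cry1.

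The comparison of Model_Swim with Model addresses what swimming changes under AOM/DSS. Ciart was 7.66 times higher in Model_Swim, with a log2 fold change of 2.94 (SE 0.36), Nr1d1 2.88 times higher (1.52, SE 0.16) and Nr1d2 2.07 times higher (1.05, SE 0.11). Per1 (1.13, SE 0.18), Per3 (1.07, SE 0.13) and Per2 (0.92, SE 0.22) were each about as much higher as Nr1d2 on the log2 scale. Cry2 (0.50, SE 0.12) and Bhlhe41 (0.52, SE 0.23) were apart from Model by less, Bhlhe40 (0.40, SE 0.18) overlapped it, and Cry1 was the one member with a negative difference (−0.56, SE 0.19), with overlap. By the study's cutoffs 4 members were called higher (Ciart, Nr1d1, Nr1d2 and Per3) where 0.0646% of all genes were, or 10 genes, and 8 members lay above Model without overlap, against 8.32% of all genes. The choice used these values, and nothing is read from the counts. The 4 calls fell to 0 with the acinar level as a covariate, with a term for the acinar background, and in a fit of these groups alone, and to 2 without Model 1 or without Model_Swim 2. Every Model_Swim library had a lower background of acinar genes (0.00366% to 0.00765% of the highest library by the median gene) than every Model library (0.109% to 100%), so that background and the groups cannot be told apart here. Without Model 1 and Model 3, which leaves Model 2 with its high squamous sum, the log2 fold change was 3.35 (SE 0.32) for Ciart, 1.58 (SE 0.12) for Nr1d1, 1.19 (SE 0.12) for Nr1d2 and 0.78 (SE 0.11) for Per3.

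**Figure D3:**
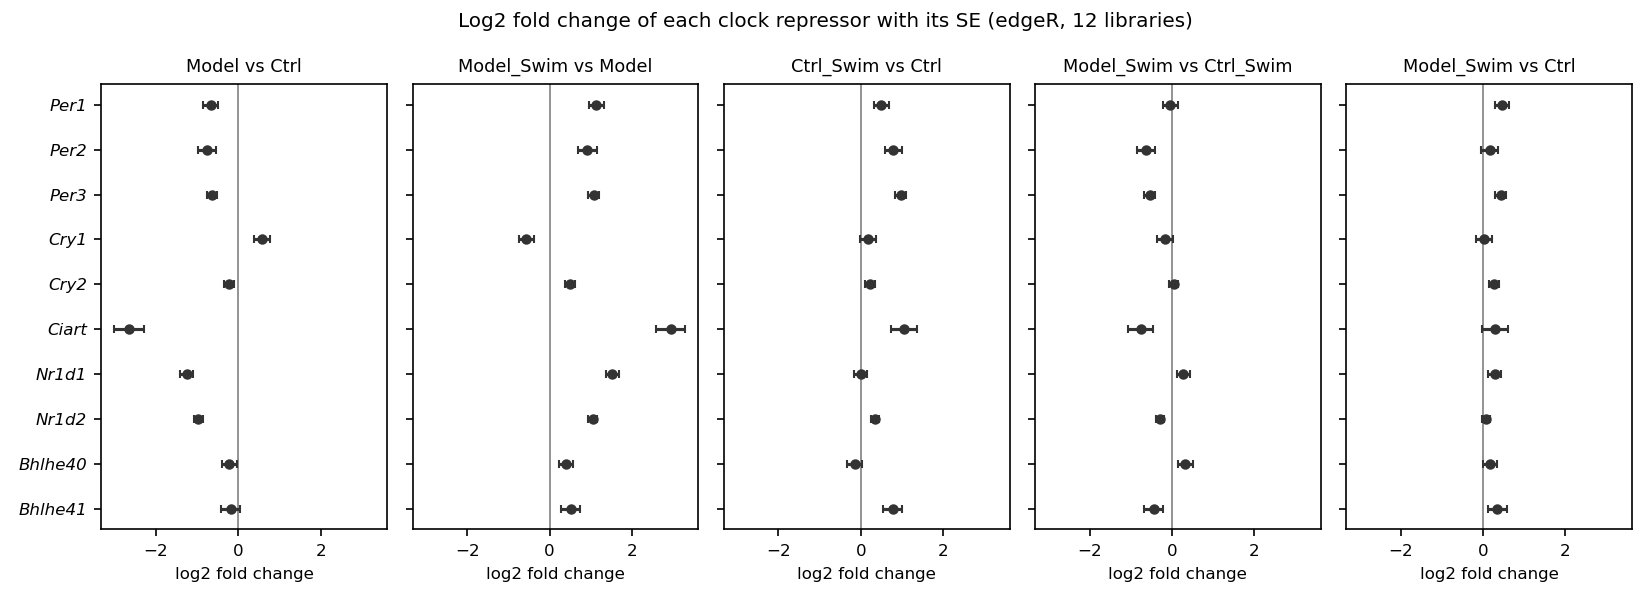
Log2 fold change of each clock repressor gene, with its standard error as a bar, in 5 comparisons of the 4 groups from the edgeR fit of 12 libraries. Ciart stands out at −2.65 in Model vs Ctrl and at 2.94 in Model_Swim vs Model, both of which share the Model libraries and were used in the choice of the genes, and Cry1 has the opposite sign to the others in both.

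The comparison of Ctrl_Swim with Ctrl addresses swimming in mice without AOM/DSS and was not used in the choice of the genes, although it shares the Ctrl libraries with Model vs Ctrl. Per3 rose 1.96-fold (log2 fold change 0.97, SE 0.13, edgeR adjusted p = 0.0175), in 3 of 3 mice above every Ctrl mouse. It was the one member that passed the test, where 0.168% of all genes passed in the higher direction. Per3 also passed in 18 of 25 alternatives, among which the adjusted p alone repeats the main fit. Its log2 fold changes there lay between 0.85 and 1.08, with adjusted p between 3.96e-09 and 0.398. The pass was lost, at a nearly unchanged fold, without Ctrl 1 (edgeR adjusted p = 0.102), Ctrl 2 (0.0562), Ctrl 3 (0.0677) or Ctrl_Swim 3 (0.0903). Ctrl_Swim 2 and Ctrl_Swim 4 had a lower background of acinar genes than Ctrl, at 0.00254% and 0.00362% of the highest library by the median gene against 0.0701% to 0.0904% in Ctrl, and Ctrl_Swim 3 was close to Ctrl at 0.0658%. Among libraries of the higher background, Ctrl_Swim 3 against Ctrl, the log2 fold change of Per3 was 0.98 (SE 0.19, edgeR adjusted p = 0.319).

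Another 4 members lay above Ctrl without overlap and did not pass. Their log2 fold changes were 1.05 for Ciart (SE 0.31, edgeR adjusted p = 0.141), 0.79 for Per2 (SE 0.21, 0.115), 0.78 for Bhlhe41 (SE 0.23, 0.136) and 0.35 for Nr1d2 (SE 0.10, 0.135). Together with Per3 these made 5 of 10 members without overlap on the higher side, where 12.6% of all genes were so placed. DESeq2, the study's tool, passed the same 5 genes, beside 658 of 18514 genes. The limma fit on log2(FPKM + 1) for a mean FPKM of at least 0.5 passed Ciart and Per3, beside 51 of 13851 genes. The other limma fits on FPKM passed Per3 alone. Per1 (0.50, SE 0.18, edgeR adjusted p = 0.196), Cry1 (0.18, SE 0.19, 0.658), Cry2 (0.23, SE 0.12, 0.335) and Bhlhe40 (−0.15, SE 0.18, 0.684) overlapped Ctrl. Nr1d1 had the same mean in both groups, 141 ± 13.6 CPM in Ctrl and 141 ± 12.4 CPM in Ctrl_Swim (SD, n = 3), a fold of 1.0 with an SE of 0.16 on the log2 scale (edgeR adjusted p = 0.998). The median log2 fold change of the 10 genes was 0.43, beside 0.0 for all genes tested. Markers of enteric neurons and glia also lay higher in Ctrl_Swim, at a sum of 61.7 to 71.2 CPM against 43.4 to 52.2 CPM in Ctrl, though none of the 6 passed the test, and their part in the differences was not tested.

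Model_Swim was compared with Ctrl_Swim to describe AOM/DSS in mice that swam. Per3 fell to 0.686 times Ctrl_Swim (log2 fold change −0.54, SE 0.13, edgeR adjusted p = 0.0398), lower in 3 of 3 mice, and was the one member that passed, where 1.69% of all genes passed in the lower direction. Per3 passed in 13 of 25 alternatives, again counting the adjusted p alone, with adjusted p up to 0.164. The pass was lost when any 1 of the Ctrl, Ctrl_Swim or Model_Swim libraries was left out, with log2 fold changes from −0.62 to −0.49. Among the 5 libraries of low acinar background, which include all of Model_Swim, it was −0.55 (SE 0.15, edgeR adjusted p = 0.0905), the same fit as without Ctrl_Swim 3. Ciart (−0.76, SE 0.31, edgeR adjusted p = 0.18) and Nr1d2 (−0.28, SE 0.10, 0.147) also lay below Ctrl_Swim without overlap and did not pass, which made 3 members so placed against 16.5% of all genes. Nr1d1 lay above Ctrl_Swim without overlap (0.28, SE 0.16, edgeR adjusted p = 0.325). Per2 (−0.63, SE 0.21, 0.107), Bhlhe41 (−0.44, SE 0.23, 0.283), Bhlhe40 (0.33, SE 0.18, 0.311), Cry1 (−0.16, SE 0.19, 0.668), Cry2 (0.04, SE 0.12, 0.87) and Per1 (−0.04, SE 0.18, 0.919) overlapped, with the edgeR adjusted p given last.

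Model_Swim and Ctrl differ in both treatments, and their comparison is the sum of Model vs Ctrl and Model_Swim vs Model. Its tests of the members are therefore not independent of the choice of the genes. Here edgeR passed 0 of the 10 members, where 15.1% of all genes passed in either direction. At an unadjusted p under 0.05 there were 3 (Cry2, Per1 and Per3), beside 5113 of all 15484 genes tested. DESeq2 passed Per3 alone, beside 3125 of 18514 genes. The limma fit on log2(FPKM + 1) for a mean FPKM of at least 0.5 passed Cry2 and Per3, beside 1978 of 13851 genes. The lowest edgeR adjusted p was that of Per3 (log2 fold change 0.43, SE 0.13, adjusted p = 0.051, with 0.00318 to 0.483 over 24 alternatives), followed by Per1 (0.46, SE 0.18, adjusted p = 0.0973). Per1, Per3, Cry2 (0.27, SE 0.12) and Nr1d1 (0.28, SE 0.16) lay above Ctrl without overlap, 4 of 10 members against 22.5% of all genes. Ciart (0.29, SE 0.31), Per2 (0.16, SE 0.21), Nr1d2 (0.08, SE 0.10) and Cry1 (0.02, SE 0.19) overlapped Ctrl. A p above the threshold does not show that these groups are alike.

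The interaction, the change with swimming under AOM/DSS less that without it, is given as a description because it contains the comparison used in the choice. It was 1.89 (SE 0.47) for Ciart, 1.52 (SE 0.22) for Nr1d1, 0.69 (SE 0.15) for Nr1d2 and 0.63 (SE 0.25) for Per1 on the log2 scale. It was near 0 for Per3 (0.10, SE 0.19) and Per2 (0.13, SE 0.30), whose levels were higher with swimming in both settings, and negative for Cry1 (−0.74, SE 0.26). In the edgeR fit 0 genes of the whole table passed the interaction test, with 2947 at an unadjusted p under 0.05, and DESeq2 called 213 by the study's cutoffs.

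Of the other clock genes, 35 were listed by role and 34 could be tested. The lists were chosen with earlier results of these data known. Their p-values in Model vs Ctrl and Model_Swim vs Model are therefore not independent evidence beside the repressors. Among the activators and ROR receptors, Arntl, which encodes BMAL1, stood at 15.01, 22.2 and 23.97 CPM in Ctrl, 8.49, 8.99 and 11.7 in Ctrl_Swim, 45.03, 62.2 and 46.8 in Model and 19.8, 18.4 and 19.6 in Model_Swim. Its order was the reverse of that of Ciart, with Model apart on the high side and Ctrl_Swim apart on the low side. Npas2, a partner of BMAL1 in place of CLOCK, stood at 15.6 to 19.4 CPM in Ctrl, 7.18 to 8.27 in Ctrl_Swim, 23.5 to 41.4 in Model and 14.4 to 18.5 in Model_Swim, in the same order. In Model vs Ctrl Arntl rose (log2 fold change 1.33, SE 0.18, edgeR adjusted p = 0.000838), as did its paralog Arntl2 (2.12, SE 0.36, 0.00206), Npas2 (0.91, SE 0.18, 0.00432) and Rora (0.75, SE 0.15, 0.00438). These were 4 of the 6 tested of 7 listed, where 16.5% of all genes passed in the higher direction. In Model_Swim vs Model, where 0.0710% of all genes passed in either direction, Arntl alone of them passed (−1.41, SE 0.18, edgeR adjusted p = 0.0134).

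The activators of the D-box arm had their highest mean level in Ctrl_Swim and their lowest in Model. Dbp stood at 58.9 to 70.0 CPM in Ctrl, 95.2 to 118 in Ctrl_Swim, 6.97 to 21.1 in Model and 56.7 to 69.9 in Model_Swim. In Model vs Ctrl Dbp (log2 fold change −2.28, SE 0.29), Tef (−1.51, SE 0.12) and Hlf (−1.24, SE 0.32) fell (edgeR adjusted p of 0.000638, 0.000261 and 0.0136), and in Model_Swim vs Model Dbp (2.26, SE 0.29) and Tef (1.58, SE 0.12) rose (0.0134 and 0.000895). Arntl, Dbp and Tef were the 3 other clock genes called in Model_Swim vs Model, where 1 was called without Model_Swim 1 or Model_Swim 2 and 6 without Model 3. Nfil3, their antagonist at D-boxes, stood at 10.9, 11.01 and 7.64 CPM in Ctrl and at 1.97, 1.54 and 4.09 CPM in Ctrl_Swim. In Model it stood at 14.4, 14.4 and 14.1 CPM and in Model_Swim at 6.27, 5.77 and 5.88 CPM. The 4 groups of Nfil3 did not overlap and stood in the order opposite to that of Per3.

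Ctrl_Swim vs Ctrl was not used in the choice of the repressors. Whether its earlier results bore on the lists of other clock genes is not recorded, so their p-values here may not be independent of the choice. In this comparison Nfil3 fell by 1.95 (SE 0.29, edgeR adjusted p = 0.021), Npas2 by 1.16 (SE 0.19, 0.0266) and Arntl by 1.07 (SE 0.19, 0.0343) on the log2 scale, and Wee1, a kinase that restrains entry into mitosis, rose by 0.45 (SE 0.08, 0.0372). These were 4 of 34 genes tested, 3 of them lower and 1 higher, where 0.969% of all genes passed in either direction. They passed in 18, 11, 11 and 14 of 25 alternatives, with adjusted p up to 0.295, 0.425, 0.429 and 0.456. By the study's cutoffs the first 3 were called, and of the 34 genes 0 were called when Ctrl 1, Ctrl 2, Ctrl 3, Ctrl_Swim 2, Ctrl_Swim 3 or Model_Swim 2 was left out and 1 without Model_Swim 1. In Model_Swim vs Ctrl_Swim, where 5.18% of all genes passed in either direction, Npas2 (1.09, SE 0.19, edgeR adjusted p = 0.0124), Nfil3 (1.23, SE 0.29, 0.0394) and Arntl (0.98, SE 0.19, 0.0197) rose, and Tef (−0.50, SE 0.12, 0.0401) and Wee1 (−0.66, SE 0.08, 0.00342) fell. In Model_Swim vs Ctrl Arntl2 (1.58, SE 0.36, edgeR adjusted p = 0.0169) was higher by the study's cutoffs, and Rora and Sik1 passed by the adjusted p alone. That comparison is the sum of Model vs Ctrl and Model_Swim vs Model, so its p-values are not independent of the choice either. The 3 calls by the study's cutoffs in Model_Swim vs Ctrl_Swim, Npas2 and Nfil3 among them, fell to 0 without Ctrl_Swim 3, Model_Swim 1 or Model_Swim 2 and to 1 without Ctrl 1, Ctrl_Swim 2 or Model_Swim 3. The 2 calls in Model_Swim vs Ctrl, Arntl2 among them, fell to 0 without Ctrl 1 and to 1 without Ctrl 2, Ctrl 3, Model_Swim 2 or Model_Swim 3.

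Genes that act on the repressor proteins were counted in 2 lists, beside 32.7% of all genes that passed in either direction in Model vs Ctrl. Of 10 kinases, phosphatases and ubiquitin ligases of PER and CRY, Csnk1e was higher (log2 fold change 0.61) and Csnk2a1 and Ppp1cb lower (−0.20 and −0.22) in Model vs Ctrl, and in the other comparisons none passed in edgeR. Of 8 partners of PER and CRY, Hdac3 and Wdr5 were lower in Model vs Ctrl (−0.20 and −0.19) and none passed elsewhere. Of 6 further clock outputs, 2 passed as lower and 2 as higher in Model vs Ctrl. Those that fell were Usp2, a deubiquitinase (−1.29, SE 0.23, edgeR adjusted p = 0.00287), and Wee1 (−0.42, SE 0.08, 0.00389). Sik1 was among those that rose (0.88, SE 0.21, edgeR adjusted p = 0.00947). Of 7 glucocorticoid-responsive genes, listed because glucocorticoids are known to induce Per1, Dusp1 was higher in Model vs Ctrl (1.13, SE 0.15), Model_Swim vs Ctrl_Swim (1.27, SE 0.15) and Model_Swim vs Ctrl (1.06, SE 0.15), Fkbp5 (−1.09, SE 0.29) and Klf9 (−0.61) were lower in Model vs Ctrl, and none passed in Ctrl_Swim vs Ctrl.

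**Figure D4:**
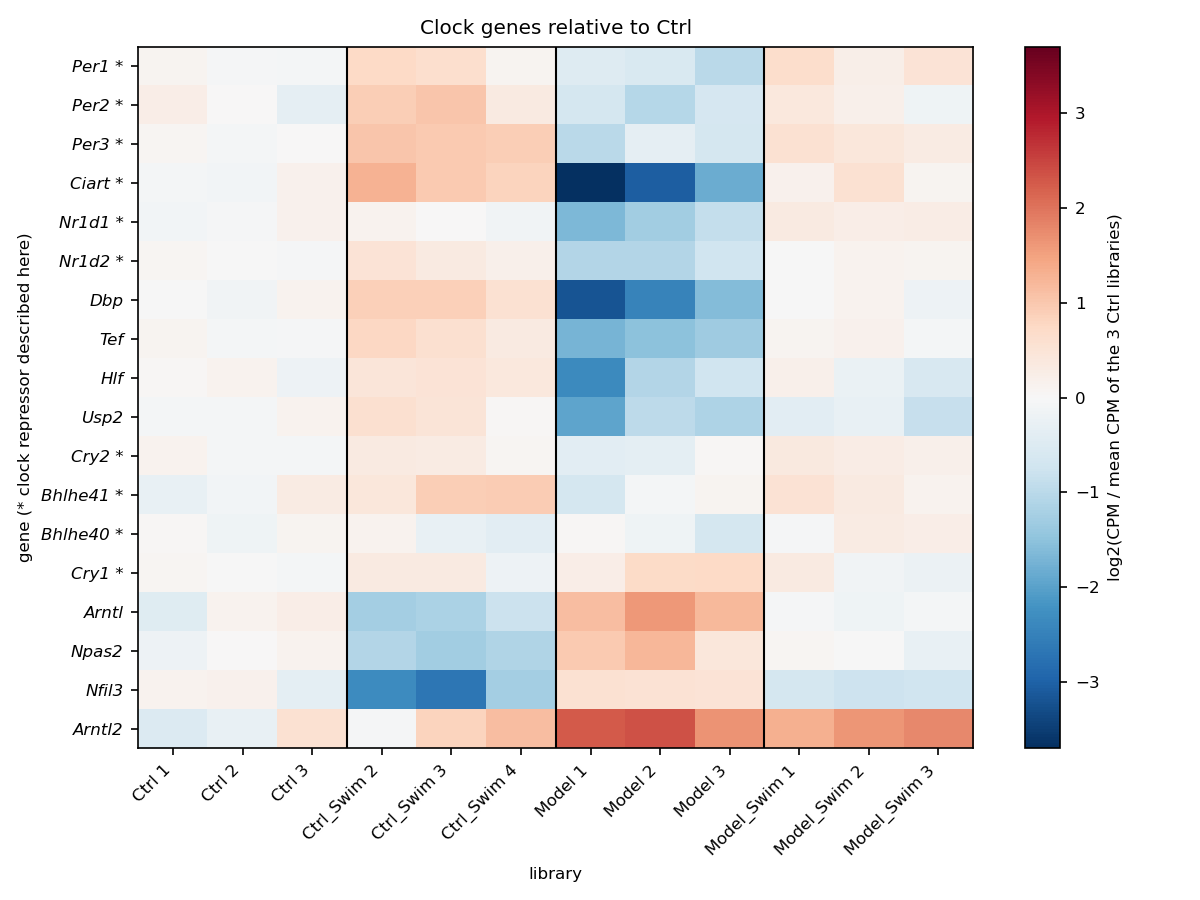
Log2 ratio of the CPM in each of 12 libraries (columns, by group) to the mean of the 3 Ctrl libraries, for the 10 clock repressors (asterisks) and 8 other clock genes (rows), with red above and blue below Ctrl. The Model columns are blue for Per1 to Usp2 and red for Cry1, Arntl, Npas2, Nfil3 and Arntl2, and the Ctrl_Swim columns are blue for Arntl, Npas2 and Nfil3.

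Likeness was measured as Pearson's r of log2 CPM over the 12 libraries, which pools 4 groups and so follows the group means, and is given as a description. Among the 45 pairs of repressors r ran from −0.59 (Cry1 and Nr1d1) to 0.99 (Ciart and Nr1d2). The 15 pairs of Per1, Per2, Per3, Ciart, Nr1d1 and Nr1d2 lay between 0.70 and 0.99 with a median of 0.86, and Bhlhe40 reached at most 0.51, with Per1. With the group means removed, Ciart and Nr1d1 kept an r of 0.91 and Ciart and Nr1d2 one of 0.80, while Per1 and Per3 had 0.09 and Per1 and Ciart −0.49. The SD of Ciart was 68.1% of its mean in Model (n = 3) and 10.8% to 17.9% in the other groups. Its values of r here therefore lean on the Model mice. Removing the means also separated Cry1 from its opposite course, since Cry1 and Nr1d1 then had an r of 0.57.

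Outside the set, the genes most like Ciart were Dbp (r = 0.995), Tef (0.984) and Slc16a9 (0.966) over 12 libraries. Those most like Nr1d1 were Lnx1 (0.957), Slc6a6 (0.955) and Slc26a1 (0.953), and those most like Per3 were Cys1 (0.918), Tef (0.918) and S100b (0.914), the last a glial gene. Bhlhe40 was most like the glycolytic gene Pkm (0.943), Anxa7 (0.926) and Gnl1 (0.896). Tef was among the 10 most alike genes of 5 repressors, Per1, Per2, Per3, Ciart and Nr1d2. Against Arntl, r was −0.96 for Per2, −0.95 for Nr1d2, −0.91 for Ciart and −0.90 for Per3, and −0.21 for Bhlhe40.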

How the data were processed

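Colorectal RNA of 12 mice was sequenced from stranded mRNA libraries. The authors used Trimmomatic for trimming, HISAT2 with the genome GRCm38.p6 for alignment and HTSeq-count for counting, and deposited the raw counts without normalization for 18514 genes. They also deposited FPKM values from Cufflinks, scaled to transcript length and library size. Tool versions and the strand setting of the counting are not given in the sources used here. FPKM was not scaled by TMM: over genes it shifted log2 differences by a median of 0.12 in Ctrl_Swim vs Ctrl and 0.11 in Model vs Ctrl. The paper names TRIzol for extraction and the sample descriptions a mirVana kit.

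The count table was fitted with edgeR 4.0.16 (R 4.3.3): TMM scaling, filterByExpr with a minimum count of 10 (15484 genes kept), a quasi-likelihood fit of all 4 groups and Benjamini-Hochberg adjustment within each comparison. A gene passed at an adjusted p under 0.05 and was called if its fold change was also over 2 or under 0.5, the study's cutoffs. Comparisons share libraries. Log2 CPM used a prior count of 2. Each library is from a different mouse. Totals of 17256953 to 19451055 counts put 3 counts at 0.154 to 0.174 CPM, and intervals cover counting error only. With 3 against 3 an exact permutation test of a single value cannot go below 0.1, so none was used.

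The members, lists, tests and alternatives were chosen with earlier results of these data known. Named are all 10 members, each other clock gene called in any comparison, the genes most like Ciart, Nr1d1, Per3 and Bhlhe40, any gene among the 10 most like of at least 4 members, and up to 2 genes of a marker list that moves with a group. Among the listed clock genes 1 is included in the counts and not reported here. Outside this rule, genes that passed the adjusted p alone, Thra, Cry1's and other pairs' values and genes overlapping members were named after their values were seen. Alternatives were DESeq2 size factors, DESeq2 1.42.0, no filter, only the groups compared, a replicate block, the adjusted p alone, limma 3.58.1 on log2(FPKM + 1) or log2(FPKM + 0.1) for a mean FPKM of at least 0.5 and on log2(FPKM + 1) unfiltered, the acinar list as a covariate, a term for or a comparison within the acinar background, leaving out both Model libraries above 1000 CPM of acinar genes, and leaving out each library. The adjusted p alone is the main fit without the fold cutoff, so every pass in the main fit recurs there. Promoters came from RefSeq windows by symbol, and all 10 symbols were in both tables. On simulated counts of 15484 genes, 200 of them changed 4-fold in Model, edgeR recovered 191 with 4 others in Model vs Ctrl and 187 with 4 others in Model_Swim vs Model, and called 0 in Ctrl_Swim vs Ctrl, where none was changed. DESeq2 called 0 there too.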

Additional observations from a re-analysis of the deposited data

Results flagged for a closer look

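Nr1d1 lay below its controls with AOM/DSS in untrained mice and above them in mice that swam, where the difference did not pass the test. In untrained mice every Model library (44.2 to 76.3 CPM) lay below every Ctrl library (130.4 to 156 CPM), a log2 fold change of −1.25 (SE 0.16). In mice that swam every Model_Swim library (165 to 177 CPM) lay above every Ctrl_Swim library (128 to 153 CPM), a log2 fold change of 0.28 (SE 0.16, edgeR adjusted p = 0.325). The difference between these effects, 1.52 (SE 0.22) on the log2 scale, is a description, since the first of them was used in the choice of the genes, and 0 genes of the table passed the test of that difference in edgeR, with 2947 at an unadjusted p under 0.05 and 213 called by DESeq2. Nr1d1 was the one of the 10 genes whose groups did not overlap in either comparison and lay on opposite sides. Bhlhe40 (−0.22 and 0.33) and Cry2 (−0.23 and 0.04) had the same signs, with overlap in both comparisons.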

How the results depend on the processing

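Over all alternatives, the log2 fold changes of the 6 repressors low in Model kept their sign in Model vs Ctrl and in Model_Swim vs Model, while the counts of calls depended on the setting. In Model vs Ctrl 2 of the 10 repressors were called, 7 by the adjusted p alone, and 4 with the acinar covariate or without both Model libraries high in acinar genes. In Model_Swim vs Model 4 were called, 2 with limma on log2(FPKM + 1) with or without the filter, 0 with only the groups compared, the acinar covariate or the term for the acinar background, and 2 to 5 with 1 library left out. In Ctrl_Swim vs Ctrl 0 were called (Per3 rose by less than 2-fold), and 1 with DESeq2, only the groups compared, the adjusted p alone, limma on log2(FPKM + 0.1) or without both Model libraries, and 0 to 1 with 1 library left out. In Model_Swim vs Ctrl_Swim 0 were called, and 1 by the adjusted p alone. For the interaction 0 were called, and 2 with DESeq2 or without both Model libraries, and 0 to 2 with 1 library left out. Of the 34 other clock genes, 7 were called in Model vs Ctrl and 16 by the adjusted p alone, beside 1150 and 5066 of all 15484 genes. With limma on log2(FPKM + 1), filtered or not, 4 were called there. In Model_Swim vs Model 3 were called, 5 with DESeq2, 1 with only the groups compared, 0 with the acinar covariate or the background term, and 1 to 6 with 1 library left out, the 6 without Model 3. In Ctrl_Swim vs Ctrl 3 were called, 1 with limma on log2(FPKM + 0.1) or within one acinar background, 0 with limma on log2(FPKM + 1), filtered or not, or with the background term, and 0 to 3 with 1 library left out. In Model_Swim vs Ctrl_Swim 3 were called, 6 by the adjusted p alone, 0 with limma on log2(FPKM + 1), filtered or not, the background term or within one background, and 0 to 4 with 1 library left out. In Model_Swim vs Ctrl 2 were called, 4 by the adjusted p alone, 1 with limma on log2(FPKM + 1), filtered or not, 0 with the background term, and 0 to 2 with 1 library left out. For the interaction 0 were called, 2 with DESeq2 or without both Model libraries, and 0 to 2 with 1 library left out. The causes were not tested.

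In the comparisons tested for the repressors, signs turned for the following values. Nr1d1 in Ctrl_Swim vs Ctrl, just below 0, was 0.01 with DESeq2, its size factors, only the groups compared or without both Model libraries, 0.02 without the filter or within one background, 0.13 with each limma fit, 0.00076 with the acinar covariate, 0.0021 with the background term and −0.04 to 0.10 with 1 library left out. In Model_Swim vs Ctrl_Swim, Per1 (−0.04) was 0.02 with the background term, 0.01 within one background and −0.21 to 0.07 with 1 library left out, and Cry2 (0.04) was −0.04 to 0.08 with 1 library left out. In Model_Swim vs Ctrl, Cry1 (0.02) was −0.02 with the acinar covariate and −0.17 to 0.13 with 1 library left out, and Bhlhe40 (0.17) was −0.0046 with the background term. Of the values given as a description, Bhlhe41 in Model vs Ctrl (−0.18) ran from −0.33 to 0.02, and in the interaction Per2 (0.13) ran from −0.19 to 0.51 and Per3 (0.10) from −0.21 to 0.25. No comparison within one acinar background could be made for Model_Swim against Model or Ctrl, which share no side, nor one of only the groups compared for the interaction.

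Over all genes, DESeq2 against edgeR called 115 against 11 in Model_Swim vs Model, 76 against 26 in Ctrl_Swim vs Ctrl, 274 against 155 in Model_Swim vs Ctrl_Swim, 592 against 352 in Model_Swim vs Ctrl and 213 against 0 in the interaction. Over all alternatives the counts ran from 426 to 5066 in Model vs Ctrl (1150 as reported), from 0 to 327 in Model_Swim vs Model, from 0 to 150 in Ctrl_Swim vs Ctrl, from 18 to 802 in Model_Swim vs Ctrl_Swim, from 2 to 2340 in Model_Swim vs Ctrl and from 0 to 249 in the interaction. The upper ends of 5066, 150, 802 and 2340 are those of the adjusted p alone, without the fold cutoff, and so stand at an unlike threshold. With the cutoff kept, the highest count was 1679 in Model vs Ctrl, 76 in Ctrl_Swim vs Ctrl and 665 in Model_Swim vs Ctrl. The counts of 11 to 38 for Ciart in Model limit the precision of its fold.

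Replicate numbers were shared between groups without a stated meaning. Deviations from the group means correlated at −0.261 to 0.564 (median 0.00462) in 15 pairs with the same number and at −0.557 to 0.451 (median −0.0309) in 39 others. These ranges overlap widely, so with 3 libraries per group they cannot decide whether the numbers pair the mice. With the replicate block the repressors called were 2 in Model vs Ctrl, 5 in Model_Swim vs Model and 0 in the others, the other clock genes called were 1 in Ctrl_Swim vs Ctrl and 1 in Model_Swim vs Ctrl_Swim, Per3 had a log2 fold change of 0.98 (SE 0.17, adjusted p = 0.151) in Ctrl_Swim vs Ctrl and −0.55 (SE 0.17, adjusted p = 0.164) in Model_Swim vs Ctrl_Swim, Nr1d1 was 0.00052 in Ctrl_Swim vs Ctrl, Cry2 was −0.05 in Model_Swim vs Ctrl_Swim, and Per2 was −0.19 in the interaction. Over all genes the block called 22 in Model_Swim vs Model, 1 in Ctrl_Swim vs Ctrl and 18 in Model_Swim vs Ctrl_Swim. A call lost under the block is not described as a weaker effect.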
